A study of Mus musculus with 35 samples.

Results

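The comparison set 5' reads against internal reads of the same 9 control embryos, which are single mouse embryos at the late 2-cell stage. It covered every gene and every repeat subfamily of the count files, and asked which of them were counted mainly at transcript starts and which mainly along transcript bodies. All embryos labelled as controls entered, 9 of 35 in the series, and each gave 2 count files from 1 library, 1 of 5' reads and 1 of internal reads. Of 54838 gene rows and 1395 repeat rows, 11449 genes and 642 repeat subfamilies had at least 10 counts (5' and internal summed) in at least 5 of 9 embryos and were tested.

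The embryos came from the F1 cross of C57BL/6J and CBA/H mice, were injected as zygotes 24 h after hCG (the ovulation trigger), grew in KSOM medium and were collected at 48 h. Treated embryos of 3 kinds were used only to see whether the control pattern recurred: 7 with SRF loss of function (SRF-LOF, mRNA of a dominant negative SRF), 9 with DUX loss of function (DUX-LOF, an antisense oligonucleotide, ASO, against DUX) and 10 with both (Double-LOF). The controls received the scrambled oligonucleotide SCR_ASO, so they are injected embryos, and neither an uninjected group nor a control mRNA is among the labels. The library method, Smart-seq+5', gives fragments that carry the transcript's 5' end beside fragments from inside it, starting from polyA RNA.

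RNA polymerase begins a transcript at a promoter, and the capped 5' end marks that place. A long terminal repeat (LTR), the flank of an endogenous retrovirus, carries such a promoter, while the internal part between the LTRs (rows ending in "-int") is copied as the transcript's body. At the 2-cell stage, when the mouse embryo first switches on its own genome, LTRs of the ERVL class (MT2, the LTR of MERVL) and of the MaLR class (MT and ORR1) are known as starts of retroviral and of chimeric gene transcripts. LINE-1 and SINE elements have no LTR and carry promoters of their own. Each fragment counted from a 5' end stands for a transcript end, while a long transcript can give many internal fragments. A ratio of the read classes is therefore a measure relative to the other rows of the table, and the position of a read within its row is not in the files.

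The 5' libraries held 983915 to 1524595 gene counts and the internal libraries 943657 to 2039475. Of all gene and repeat counts, repeats held 29.5 ± 7.97% in 5' reads and 22.4 ± 5.60% in internal reads (SD, n = 9), and Control 10 had the highest 5' share at 44.4%, against 27.0% in its internal reads. Mitochondrial genes took 8.73 ± 2.63% of 5' gene counts and 5.35 ± 1.82% of internal gene counts (SD, n = 9). ERCC spike-ins, synthetic control RNAs, stood 0.78 ± 0.11 higher in 5' reads on the log2 scale (SD, n = 9 embryos). The 16 late 2-cell markers summed to 3442 to 12134 CPM (counts scaled to a fixed total of gene counts per library) in 5' reads and 2511 to 10034 CPM in internal reads. Of the marker genes of cumulus cells (9) and sperm (5), which could cling to an embryo, none had enough counts to be tested, and their summed levels reached at most 44.2 and 17.2 CPM in 5' reads. The 7 blood cell markers summed to at most 193 CPM in 5' reads, and 4 of them were at 0 in all internal libraries. The part of such cells in the results was not tested.

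Ratios are given as log2(5' CPM / internal CPM) ± standard error from edgeR's quasi-likelihood test with the embryo as a block, and every adjusted p is from this test (Benjamini-Hochberg) unless another is named. A row is called start-rich where the adjusted p is under 0.05 and the log2 ratio at least 1, and body-rich where it is at most -1. Among genes, 2014 (17.6%) were higher and 5376 (47%) lower in 5' reads, together 64.5% of those tested, and 1023 (8.94%) were start-rich and 2362 (20.6%) body-rich, and the median log2 ratio was -0.40. Among repeat subfamilies, 172 (26.8%) were higher and 259 (40.3%) lower, together 67.1% of those tested, and 127 (19.8%) were start-rich and 134 (20.9%) body-rich, and the median was -0.25. The zero of this scale depends on how libraries are made comparable: with TMM factors the median gene stood at -0.12 and 2888 genes were higher and 3543 lower, with DESeq2's size factors at -0.09 (2934 and 3355), and with ERCC scaling at -1.17 (790 and 8991). For repeats the higher and lower counts were 220 and 178 with TMM factors, 224 and 168 with DESeq2, and 109 and 423 with ERCC scaling. Start-rich and body-rich genes numbered 1433 and 1479 with TMM factors and 1478 and 1463 with DESeq2. The larger number of body-rich genes thus depends on the scaling. Start-rich and body-rich repeats numbered 149 and 86 with TMM factors and 152 and 86 with DESeq2. Ratios of single rows are best read relative to the median gene.

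MT2 LTRs, the promoters of the 2-cell retrovirus MERVL, were mostly start-rich. The lengths of repeat rows are not given, and the part of length in their ratios was not tested. The row MT2_Mm had a lowest, median and highest value of 849.6, 1276 and 2725 CPM in 5' reads, against 131, 287 and 637 CPM in internal reads. All 9 embryos had more in 5' reads and the read classes did not overlap. The log2 ratio was 2.43 ± 0.19 (adjusted p = 1.9e-06). The files split MT2_Mm further into the rows MT2-Mm_i to MT2-Mm_v, which are close in sequence and may share reads: their ratios were 2.79 ± 0.09, 2.17 ± 0.15, 2.40 ± 0.15, 1.77 ± 0.15 and 1.93 ± 0.18 in the order i to v, and all were start-rich. The most counted, MT2-Mm_ii, reached 7945 to 40535 CPM in 5' reads and 2285 to 8175 CPM in internal reads, so its ranges overlapped. Summed, MT2_Mm and these rows stood at 39786 ± 23763 CPM in 5' reads and 7399.97 ± 3187 CPM in internal reads (SD, n = 9). Among other MT2 rows, 10 of 10 MT2C rows and 3 of 4 MT2A and MT2B rows were start-rich, with medians of 2.76 and 2.84. MT2B1 had 5746 to 9872 CPM in 5' reads and 481 to 1498 CPM in internal reads (log2 ratio 3.31 ± 0.16).

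The body of the same retrovirus was lower in 5' reads. MERVL-int, which holds the gag and pol sequence, had a lowest, median and highest value of 4306, 6674 and 12668 CPM in 5' reads, against 5564, 9603 and 19874 CPM in internal reads. Every embryo had less in 5' reads, although the ranges overlapped. The log2 ratio was -0.55 ± 0.05 (adjusted p = 8.3e-09), close to the median gene, so MERVL-int was not body-rich by the 2-fold rule. Its p rested on pairing within embryos and was lost without the block. Set against its LTR, MT2_Mm minus MERVL-int was 2.99 ± 0.61 on the log2 scale (SD over 9 embryos, lowest 2.00; exact sign-flip permutation test, two-sided, adjusted p = 0.0062, where the sign patterns give an unadjusted p of at least 0.0039).

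**Figure D1:**
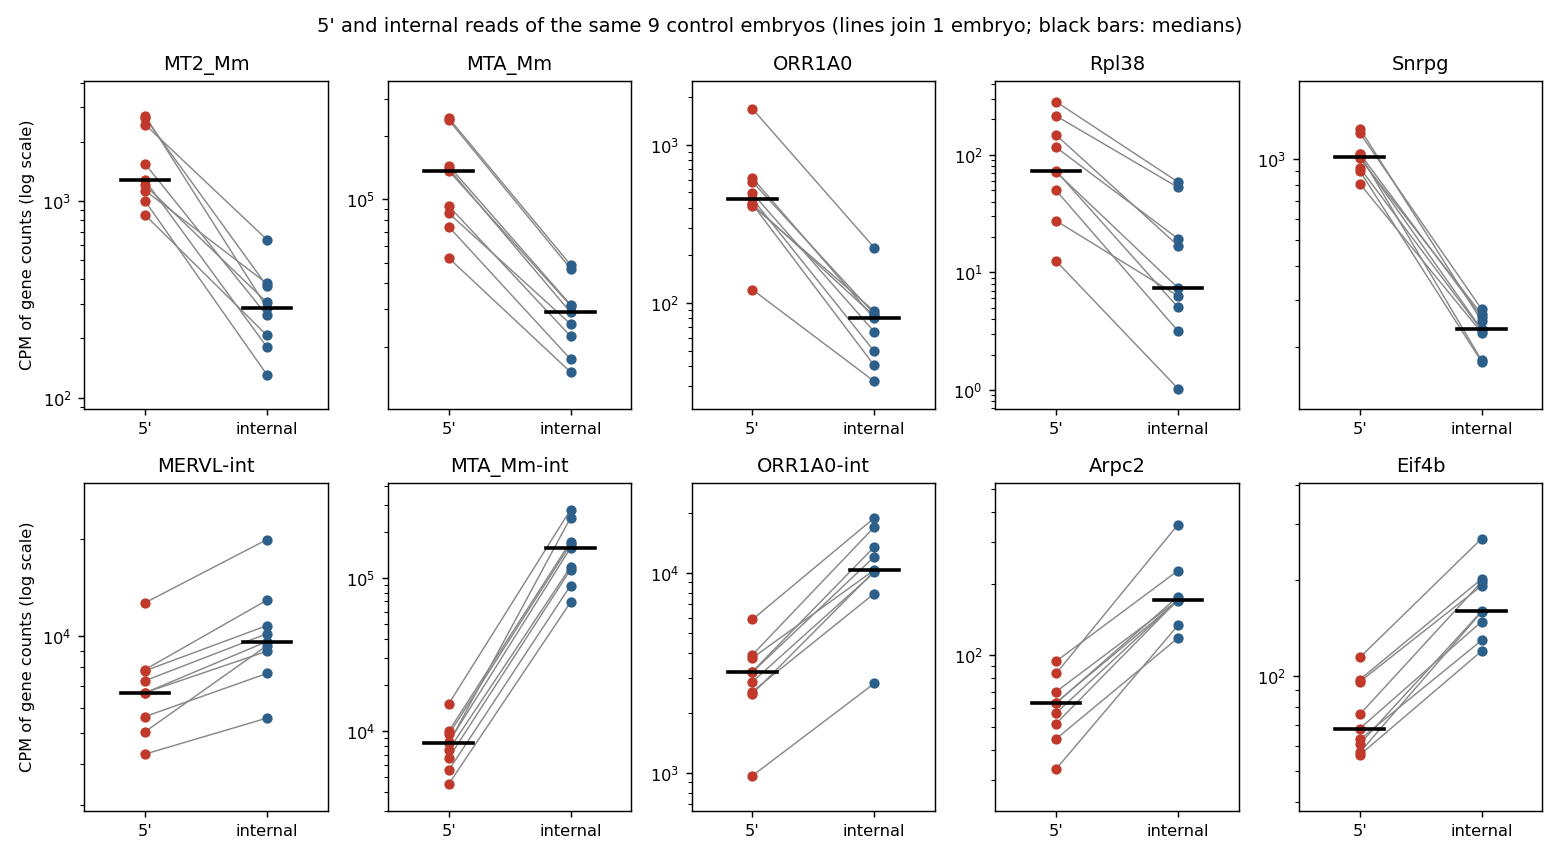
CPM, counts scaled to a fixed total of gene counts (log axis), of 5 start-rich rows (top) and 5 rows lower in 5' reads (bottom), with 5' reads left and internal reads right. Points are the 9 control embryos, lines join the read classes of 1 embryo, and black bars are medians. Lines fall from left to right in every top panel and rise in every bottom panel, as for MTA_Mm (2.10 on the log2 scale) and MTA_Mm-int (-4.17).

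The widest split between LTR and body was in MTA, a MaLR element known for heavy transcription in oocytes and early embryos. MTA_Mm, the LTR, had a lowest, median and highest value of 52589, 136199 and 242232 CPM in 5' reads, against 15149, 29065 and 48847 CPM in internal reads. MTA_Mm-int, its body, had 4499.73, 8287 and 15028 CPM in 5' reads, against 69230.1, 156876 and 278374 CPM in internal reads. Neither pair of ranges overlapped, and the 2 rows lay in opposite directions in all 9 embryos. The log2 ratios were 2.10 ± 0.06 (adjusted p = 1.8e-18) and -4.17 ± 0.09 (adjusted p = 2.1e-19), a difference of 6.27 ± 0.45 (SD, n = 9; exact sign-flip permutation test, adjusted p = 0.0062). In counts, MTA_Mm held 1481105 5' and 308416 internal counts over the 9 embryos, and MTA_Mm-int 90142 5' and 1594958 internal counts.

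ORR1A, another MaLR group, had the same arrangement in ORR1A0 and ORR1A1. ORR1A0 had a lowest, median and highest value of 121, 455 and 1689 CPM in 5' reads, against 31.9, 79.9 and 224 CPM in internal reads, and ORR1A0-int had 973, 3206 and 5868 CPM in 5' reads, against 2809.95, 10367 and 18866 CPM in internal reads. The read classes overlapped in range for each row but were ordered alike in all 9 embryos, and the log2 ratios were 2.74 ± 0.11 and -1.81 ± 0.07. ORR1A1 stood at 1.62 and ORR1A1-int at -1.60. The bodies ORR1A2-int (-0.24) and ORR1A3-int (-0.16) were not lower than the median gene, beside LTR rows at 1.49 (ORR1A2) and 0.56 (ORR1A3). Of 20 ORR1A LTR rows 17 were start-rich and 0 body-rich (median 2.05). ORR1A0_v, at 3.58 ± 0.29, and ORR1A1_i, at 3.43 ± 0.17, were among the 8 start-rich LTR rows with the largest ratio, as was MTB_Mm, the LTR of a related MT element, at 2.93 ± 0.12 (522 to 2635 CPM in 5' reads, 105 to 248 CPM in internal reads). The ratio differed with the group of LTRs: MTA, MTB and MTC LTRs were all start-rich at 2.10 to 2.93, while 0 of 4 MTE rows and 1 of 9 rows from ORR1B to ORR1G were (medians -0.23 and 0.21), and of 35 rows of the old groups MLT1 (MaLR) and MLT2 (ERVL) 1 was start-rich and 14 body-rich (median -0.70).

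An LTR and an internal part of the same element were set against each other in 27 pairs with enough counts (30 listed). The LTR had the higher ratio in 22 of the 23 pairs past the threshold, and in 16 pairs this held in every embryo. The LTR rows RLTRETN_Mm, RLTR6_Mm and RLTR4_Mm each recur with another internal part, so the pairs are not all independent. Outside ERVL and MaLR, RLTR1B stood at 2.00 against -1.05 for MMERGLN-int, the body of the gammaretroviral GLN element, RLTR10 at 1.77 against -0.49 for RLTR10-int, and IAPLTR1_Mm at 1.63 against -0.39 for IAPEz-int. IAP elements are ERVK retroviruses that are still mobile in mice, and IAPLTR1_Mm had 87.5 to 363 CPM in 5' reads and 41.2 to 134 CPM in internal reads. IAP LTRs were split as a group, with 3 of 14 rows start-rich and 4 body-rich (median -0.03). The call of IAPEz-int was lost with TMM factors (-0.093), with DESeq2 (-0.073) and without the embryo block. MTD was the exception in direction: the LTR stood at 0.87 and MTD-int at 1.90, a difference of -1.03 ± 0.40 (SD, n = 9, lower in all 9 embryos; adjusted p = 0.0062 by the exact sign-flip permutation test). In 4 pairs the difference did not pass the threshold, among them RLTR6_Mm and MMVL30-int (0.08 and 0.07, difference -0.02 ± 0.51) and IAPEY_LTR and IAPEy-int (-0.85 and -0.88, difference 0.26 ± 1.68).

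**Figure D2:**
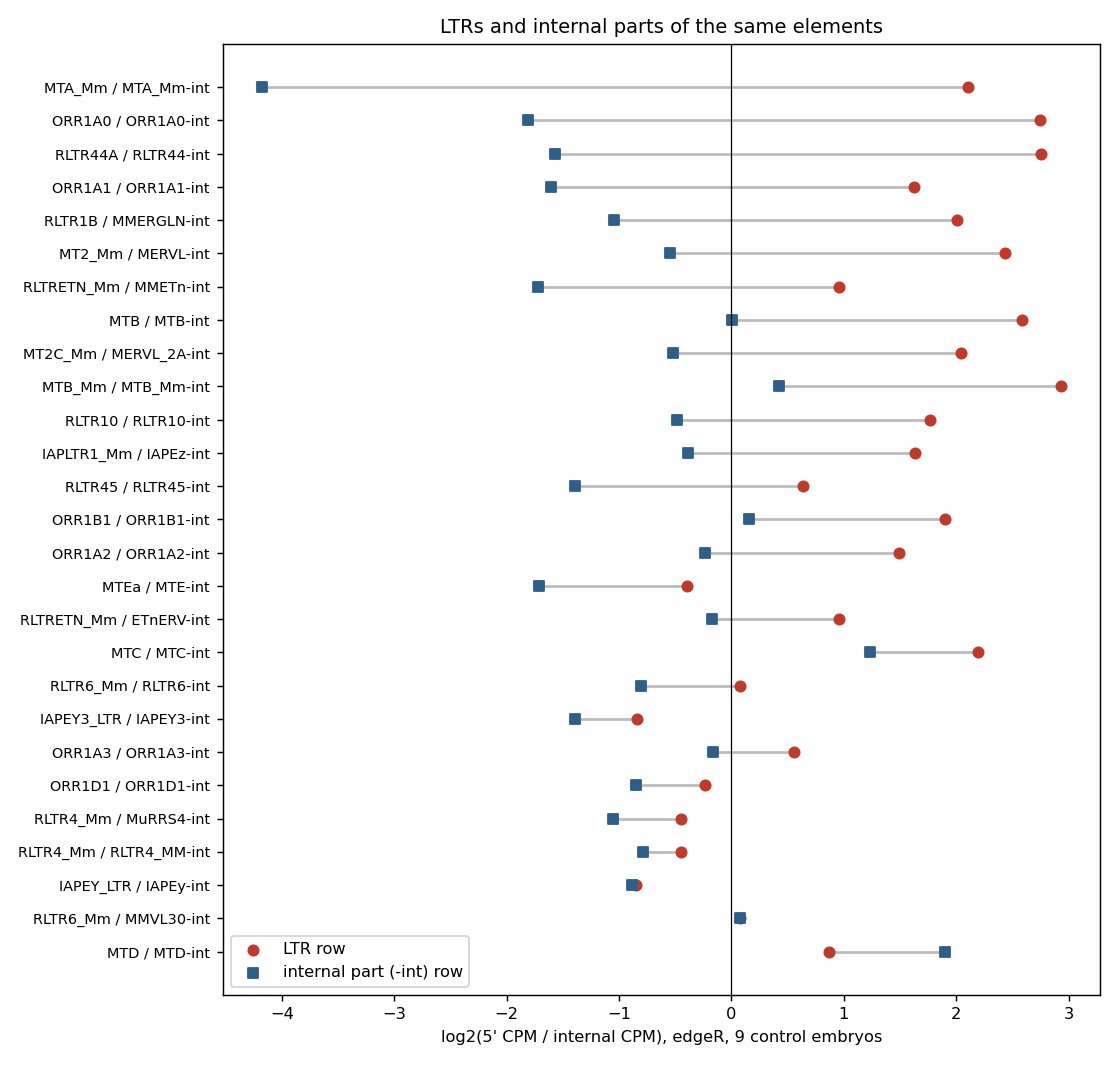
log2(5' CPM / internal CPM) in 27 pairs of an LTR row (circles) and an internal part of the same element (squares), edgeR, 9 control embryos. RLTRETN_Mm, RLTR6_Mm and RLTR4_Mm each recur with another internal part. Circles lie right of squares except for MTD, and the longest line is that of MTA_Mm, from 2.10 to -4.17.

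Over all 344 LTR-class rows that are not internal parts, 100 were start-rich and 58 body-rich (median 0.14), against 5 and 29 of 88 internal parts (median -0.56). In the ERVK family 48 of 179 LTR rows were start-rich and 28 body-rich, against 0 and 18 of 41 internal parts. Some LTR rows were body-rich by a wide margin. RLTR13D5, an ERVK LTR, had a lowest, median and highest value of 1.785, 14.3 and 28.6 CPM in 5' reads, against 94.7, 272 and 573 CPM in internal reads (log2 ratio -4.37 ± 0.23). The rows MER89 (-3.31 ± 0.11), RLTR40 (-3.21 ± 0.17), LTR16D (-3.07 ± 0.29), LTRIS4A (-2.98 ± 0.40) and RLTR19 (-2.56 ± 0.15) followed, with HERVL40-int (-3.30 ± 0.15) and MTA_Mm-int among the 8 largest. The opposite exception was MER34B-int, an internal part that was start-rich at 6.23 ± 0.40, with 1537 5' counts and 20 internal counts over the 9 embryos and a median of 0 CPM in internal reads. RLTR11B (3.27 ± 0.20), MT2C_ix (3.16 ± 0.08) and MT2C_iv (3.32 ± 0.29) complete the largest start-rich LTR rows.

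**Figure D3:**
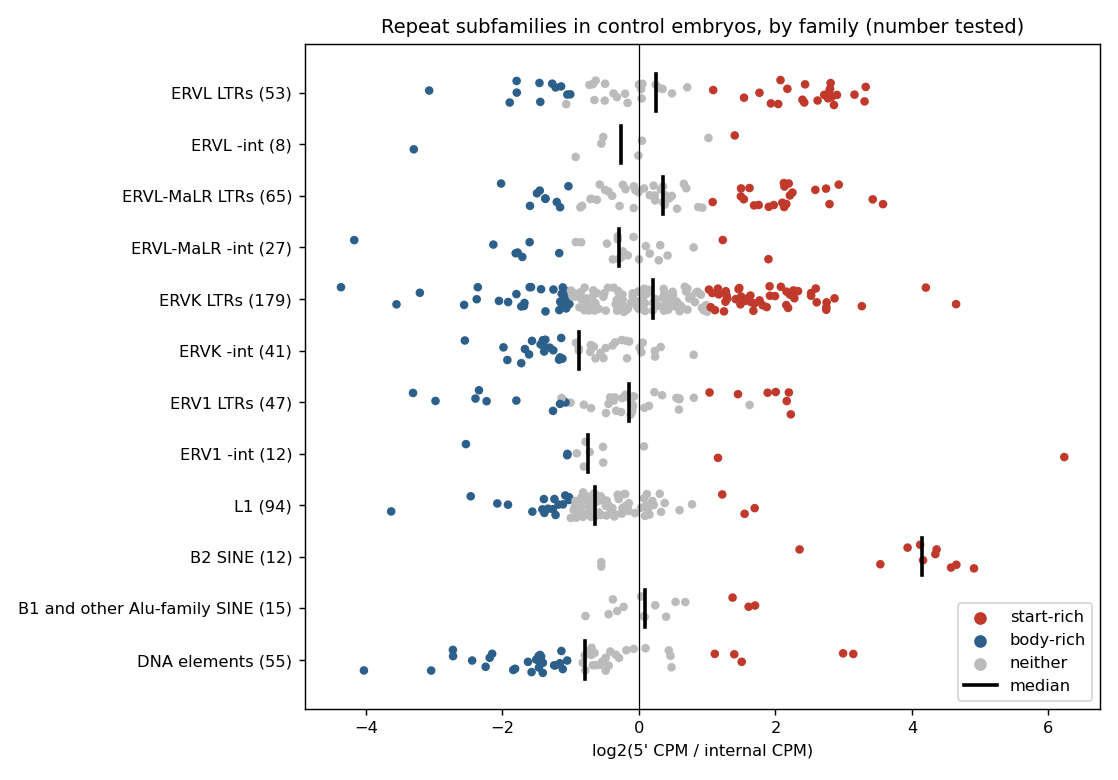
log2(5' CPM / internal CPM) of each repeat subfamily tested, by family, with the number tested in brackets. Points are subfamilies, coloured by call, and black bars are medians, which lie at 0.25, 0.35 and 0.20 for ERVL, ERVL-MaLR and ERVK LTRs and at -0.27, -0.30 and -0.88 for their internal parts.

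LINE-1 rows were seldom start-rich. Of 94 L1 subfamilies 3 were start-rich and 17 body-rich, a body-rich share near that of all repeats, with a median of -0.65, and the 50 old L1M and L1P rows held 15 body-rich ones and 1 start-rich one (median -0.79). X7C_LINE, of the old CR1 family, had 0 to 5.45 CPM in 5' reads and 16.2 to 93.99 CPM in internal reads (log2 ratio -4.79 ± 0.35), followed by L1ME3F (-3.63 ± 0.38), HAL1ME (-2.47 ± 0.27) and L1ME4a (-2.08 ± 0.28). Young mouse L1Md rows, whose 5' untranslated region is an own promoter built of monomers, differed among themselves. L1Md_F2 had 758 to 1693 CPM in 5' reads and 182 to 643 CPM in internal reads, with no overlap (1.55 ± 0.23, adjusted p = 0.00025). The other start-rich row of the 7, L1MdTfII_A, is named here after its value was seen and stood at 1.70 ± 0.29 (adjusted p = 3.3e-05, higher in 8 of 9 embryos). L1Md_A was lower in 5' reads, at 41.98 to 380.2 CPM in 5' reads and 74.1 to 519.8 CPM in internal reads (-0.56 ± 0.08, adjusted p = 2.1e-06), and L1Md_T (0.20 ± 0.12, adjusted p = 0.18) and L1Md_Gf (0.03 ± 0.17, adjusted p = 0.88) were within the spread between embryos. Lx2A1 (0.78 ± 0.18), MusHAL1 (0.59 ± 0.15) and Lx3A (0.38 ± 0.08) were the other LINE rows with the largest positive ratios in all 9 embryos. With ERCC scaling the sign of L1Md_T, L1Md_Gf, MusHAL1 and Lx3A turned and the call of Lx2A1 was lost. Without the embryo block the calls of L1Md_A, Lx2A1, MusHAL1 and Lx3A were lost.

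B2 SINEs, short elements that RNA polymerase III transcribes and that also lie within mRNAs, had the highest ratios of any repeat family. Of 12 rows 10 were start-rich and 0 body-rich, with a median of 4.14. Their sum stood at 65318 to 403851 CPM in 5' reads and 7631 to 28187 CPM in internal reads, a log2 ratio of 3.32 ± 0.34 (SD, n = 9). The 2 rows that were not start-rich, B3 and B3A, stood at -0.55 each and were chosen here after their values were seen. B1 SINEs, a separate family derived from 7SL RNA, reached a median of 0.47 with 3 of 10 rows start-rich. DNA transposon fossils, which are not known to move in mice, gave 5 start-rich and 26 body-rich rows of 55 (median -0.79).

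Sums over whole classes hid these splits. The LTR class as a whole stood at 271527 ± 85713 CPM in 5' reads and 253140 ± 84874 CPM in internal reads (SD, n = 9), a mean log2 ratio of 0.11 ± 0.15 that was higher in 7 of 9 embryos and within the spread (exact sign-flip permutation test, two-sided, adjusted p = 0.074). Split into its parts, LTR rows stood at 244708 ± 80505 CPM in 5' reads and 61823 ± 15929 CPM in internal reads, and internal parts at 26819 ± 6213 CPM in 5' reads and 191317 ± 70500.3 CPM in internal reads. ERVL summed to a log2 ratio of 1.65 ± 0.20 and ERVK to 0.36 ± 0.21, both higher in 9 of 9 embryos, and ERVL-MaLR to -0.28 ± 0.12, lower in 9 of 9 (adjusted p = 0.005 each). The MaLR sum turned on 1 row: without MTA_Mm-int it was 1.47 ± 0.35 and higher in 9 of 9 embryos. The L1 sum stood at -0.27 ± 0.18 and the SINE sum at 2.35 ± 0.38 (adjusted p = 0.005 each; 2.27 without Control 10), and the SINE sum without B2 at 0.41 ± 0.33, higher in 8 of 9. With TMM factors the signs of the ERVL-MaLR and L1 sums turned, to 0.02 and 0.03, and the LTR sum passed the threshold at 0.40. With ERCC scaling the LTR and ERVK sums turned, to -0.67 and -0.42.

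Among protein-coding genes, the ratio was tied to length. Exonic length is the summed length of a gene's exons in GENCODE M21. The median log2 ratio was 1.61 below 500 bp (47 genes), 0.91 from 500 to 1000 bp (229), 0.08 from 1000 to 2000 bp (1135), -0.36 from 2000 to 3000 bp (1501) and -0.52 to -0.48 in the 3 bins above 3000 bp (7055 genes). Spearman's rho across protein-coding genes was -0.33 up to 3000 bp (n = 2912) and 0.0011 above (n = 7055), a description across genes that share the libraries and are not independent. Below 500 bp, 27 genes were start-rich and 15 body-rich. Several lists below are therefore also given with the median residual of their members from a smoothed trend of the ratio on length.

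**Figure D4:**
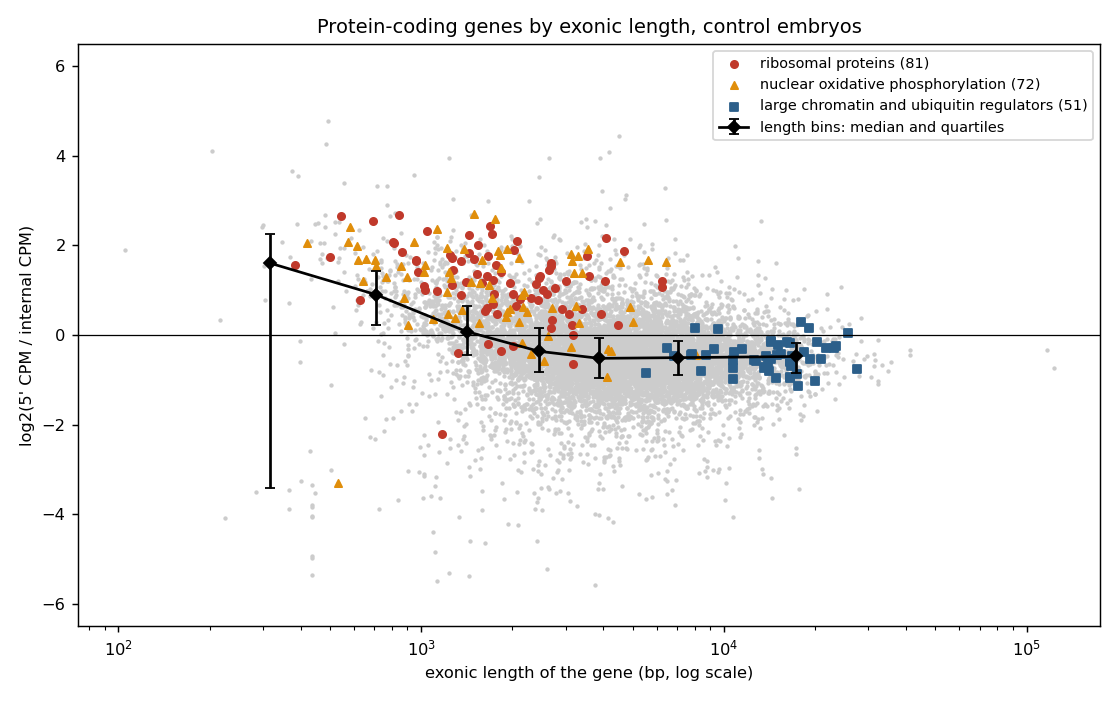
log2(5' CPM / internal CPM) against exonic length (log axis) for protein-coding genes in control embryos (grey points). Diamonds with bars are medians and quartiles of 7 length bins, which fall from 1.61 to -0.48, and coloured points are ribosomal protein genes, nuclear oxidative phosphorylation genes and large chromatin and ubiquitin regulators.

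Ribosomal protein genes, whose mRNAs are known to begin with a pyrimidine tract at the cap (the 5' terminal oligopyrimidine, or TOP, motif), were mostly start-rich. Of 81 tested, 73 were higher and 5 lower in 5' reads, and the median of 1.21 lay 1.61 above that of all genes. Of the 81, 52 were start-rich (64.2% against 8.94% of all genes) and 1 body-rich (1.23% against 20.6%). The list's median length was 1739 bp and its median residual from the length trend 1.22. Rpl38, of the large subunit (ENSMUSG00000057322.12, GRCm38, chromosome 11, 114668524 to 114672331, plus strand), had a lowest, median and highest value of 12.5, 72.8 and 283 CPM in 5' reads, against 1.03, 7.405 and 58.8 CPM in internal reads, higher in 5' reads in all 9 embryos with overlapping ranges (2.66 ± 0.17, adjusted p = 8e-12). Rpl23a, also of the large subunit, had 28.3 to 352 CPM in 5' reads and 9.47 to 50.4 CPM in internal reads (2.69 ± 0.12), and its row overlaps another annotated gene. Rpl41, which encodes the smallest large-subunit protein, was the exception, with a lowest, median and highest value of 41.95, 161 and 261 CPM in 5' reads, against 151, 681 and 1350.35 CPM in internal reads (-2.20 ± 0.24, adjusted p = 3.2e-05). Ribosomal protein genes have many processed copies in the genome, so reads of single members can be shared.

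Annotated starts of a few start-rich and body-rich genes are shown because the 5' class counts the ends they define. The sequences are RefSeq promoters on GRCm38.p6, with the 50 bases before the annotated start in lower case and the first 20 bases of the transcript in capitals. Rpl38 is at chr11:114668530-114668599 (plus strand), Atp5e at chr2:174464082-174464151 (minus), Snrpg at chr6:86371490-86371559 (plus), Omt2a at chr9:78314029-78314098 (minus), Eif4b at chr15:102073723-102073792 (plus), Arpc2 at chr1:74236467-74236536 (plus) and Rpl41 at chr10:128549149-128549218 (minus).
Rpl38: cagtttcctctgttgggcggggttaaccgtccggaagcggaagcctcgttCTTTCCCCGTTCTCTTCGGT
Atp5e: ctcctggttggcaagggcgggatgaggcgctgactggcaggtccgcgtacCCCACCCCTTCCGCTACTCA
Snrpg: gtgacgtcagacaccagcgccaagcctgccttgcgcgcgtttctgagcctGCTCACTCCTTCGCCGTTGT
Omt2a: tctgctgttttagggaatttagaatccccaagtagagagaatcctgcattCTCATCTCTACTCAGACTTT
Eif4b: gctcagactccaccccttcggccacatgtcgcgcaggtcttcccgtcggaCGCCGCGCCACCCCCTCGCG
Arpc2: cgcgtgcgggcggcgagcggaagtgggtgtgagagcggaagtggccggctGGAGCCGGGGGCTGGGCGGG
Rpl41: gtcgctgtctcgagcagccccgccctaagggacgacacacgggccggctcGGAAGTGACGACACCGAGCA

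A C followed by 4 pyrimidines (C or T), on the gene's strand and beginning within 5 bases of the annotated start, was found in 29 of 60 tested ribosomal protein genes with a RefSeq promoter (48.3%), against 21.2% of all 27025 genes with one and 23.3% of all tested genes. Rpl38, Atp5e and Snrpg have such a tract by this search, and Omt2a, Eif4b, Arpc2 and Rpl41 have none in this window. Among all start-rich genes the share was 26.4% (538 genes with a promoter) and among body-rich genes 24.5% (1557). The motif TATAAA, on either strand in the 250 bases before the start, was found in 8.36% of start-rich genes, 9.57% of body-rich genes and 8.02% of tested genes, against 14.3% of all genes with a promoter. Translation factors and other TOP mRNAs did not share the ribosomal ratio: of 25 tested 7 were higher and 14 lower in 5' reads (median -0.25, median length 4334 bp, residual 0.09). Of the 25, 0 were start-rich (against 8.94% of all genes) and 2 body-rich (8% against 20.6%). The 2 were Eif4b, which stimulates the helicase that opens 5' leaders (56.3 to 114 CPM in 5' reads, 119.6 to 270.4 CPM in internal reads, no overlap, -1.20 ± 0.08), and Eif3f, a subunit of initiation factor eIF3 (-1.09 ± 0.16, a call lost without the embryo block).

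Genes of mitochondrial respiration encoded in the nucleus were also often start-rich. Of 72 tested, 54 were higher and 6 lower, with a median of 1.23 and a residual of 0.87. Of the 72, 40 were start-rich (55.6% against 8.94% of all genes) and 1 body-rich (1.39% against 20.6%). Atp5e, the small epsilon subunit of ATP synthase (ENSMUSG00000016252.7, chromosome 2, 174461072 to 174464105, minus strand), had a lowest, median and highest value of 16.3, 25.4 and 59.01 CPM in 5' reads, against 0.74, 3.16 and 17.2 CPM in internal reads (2.59 ± 0.28, higher in all 9 embryos). Ndufc1, a complex I subunit, stood at 2.69 ± 0.36 and was higher in 8 of 9, at a median of 14.98 CPM in 5' reads and 1.94 CPM in internal reads. The exception was the row Atp5o (ENSMUSG00000116933.1, chromosome 16, 91684398 to 91926982, minus strand), at -3.31 ± 0.28, a gene model that overlaps other genes, with 0.96 to 6.13 CPM in 5' reads and 21.3 to 38.7 CPM in internal reads.

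Mitochondrial transcripts, which are made from a shared polycistron and cut apart, were split by gene. Of 13 mRNAs 6 were higher and 3 lower in 5' reads and 3 were start-rich (23.1% against 8.94% of all genes, median 0.11). mt-Atp8, which overlaps mt-Atp6 on the mitochondrial genome, had a lowest, median and highest value of 6201, 14387 and 29126 CPM in 5' reads, against 549.6, 752 and 1674 CPM in internal reads, with no overlap (4.12 ± 0.23, adjusted p = 3.4e-07). mt-Nd4l, which overlaps mt-Nd4, had 223 to 2059 CPM in 5' reads and 45.25 to 369.5 CPM in internal reads (2.40 ± 0.08). The partners stood at -0.78 (mt-Atp6) and -0.66 (mt-Nd4), and these 2 were chosen for the overlap after their values were seen. Reads of overlapping genes cannot be told apart where strand and position are not given. The rRNAs mt-Rnr1 (1.63 ± 0.06) and mt-Rnr2 (1.59 ± 0.06) were start-rich, with a median of 25880.5 CPM in 5' reads and 8879.81 CPM in internal reads for mt-Rnr2.

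Splicing genes were start-rich more often than all genes. Among 50 spliceosome and SR protein genes, 22 were higher and 11 lower in 5' reads (median 0.23, residual 0.69). Of the 50, 13 were start-rich (26% against 8.94% of all genes) and 2 body-rich (4% against 20.6%). Snrpg, a Sm ring protein (ENSMUSG00000057278.8, chromosome 6, 86371304 to 86379328, plus strand), had a lowest, median and highest value of 807, 1018 and 1294 CPM in 5' reads, against 177, 233 and 277 CPM in internal reads, with no overlap (2.14 ± 0.07, adjusted p = 9.3e-17). Snrpf, another Sm protein, stood at 2.28 ± 0.12. The body-rich members were the splicing regulator Srsf6 (-1.79 ± 0.16) and Snrpn (-1.61 ± 0.16), an imprinted Sm gene with several annotated starts whose row overlaps other genes.

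Replication histone genes, single-exon genes whose main mRNAs lack a polyA tail, had 16 of 64 members with enough counts in these polyA libraries. Of the 16, 13 were higher and 0 lower in 5' reads (median 1.64, median length 572 bp, residual 0.79). Start-rich were 11 of them (68.75% against 8.94% of all genes). Hist1h2an had 8.85 to 48.5 CPM in 5' reads and 0 to 5.39 CPM in internal reads, with no overlap (3.55 ± 0.30), Hist1h4c stood at 2.73 ± 0.30, and Hist1h2ao at 2.68 ± 0.17 with 80.3 to 219 CPM in 5' reads and 5.15 to 48.05 CPM in internal reads. Near-identical copies share reads, so the single rows are uncertain. Of 8 variant histones with a polyA tail 3 were start-rich (37.5% against 8.94% of all genes), among them H2afj (1.90 ± 0.12) and H3f3a (1.49 ± 0.07). H3f3a encodes the replacement histone used outside replication and had 275 to 1185 CPM in 5' reads and 115 to 413 CPM in internal reads.

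Cytoskeleton genes lay on both sides, with a larger start-rich and a smaller body-rich share than all genes. Of 22 cytoskeleton genes 5 were start-rich (22.7% against 8.94% of all genes) and 3 body-rich (13.6% against 20.6%). The median was -0.16 and the residual 0.14. Tmsb10, a small actin monomer-binding thymosin (ENSMUSG00000079523.8, chromosome 6, 72957347 to 72958748, minus strand), had a lowest, median and highest value of 176, 321 and 909.9 CPM in 5' reads, against 16.8, 37.03 and 137 CPM in internal reads, with no overlap (3.03 ± 0.10, adjusted p = 1.8e-16). Its relative Tmsb4x stood at 1.93 ± 0.20. Arpc2, of the Arp2/3 complex that nucleates branched actin (ENSMUSG00000006304.14, chromosome 1, 74236084 to 74268209, plus strand), had 33.4, 63.05 and 94.5 CPM in 5' reads, against 118, 170.5 and 354 CPM in internal reads, also without overlap (-1.58 ± 0.10, adjusted p = 5.3e-12). The alpha-tubulin gene Tuba1a stood at -1.23 ± 0.12.

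Maternal transcripts, loaded into the oocyte and degraded as the embryo takes over, had a median ratio close to that of all genes but a negative residual. Of 88 tested 9 were higher and 60 lower in 5' reads, against 17.6% and 47% of all genes. Of the 88, 2 were start-rich (2.27% against 8.94% of all genes) and 12 body-rich (13.6% against 20.6%). The median of -0.47 is 0.07 under that of all genes (a difference of -0.07). The list's median length was 2125 bp and its median residual from the length trend -0.30. Omt2a, an oocyte-expressed gene (ENSMUSG00000066463.13, chromosome 9, 78311972 to 78314796, minus strand), had a lowest, median and highest value of 7718, 11699 and 17270.4 CPM in 5' reads, against 3499.72, 4835 and 8210.29 CPM in internal reads (1.15 ± 0.05, higher in all 9 embryos). Oosp1, an oocyte-secreted protein gene, had 1444 to 3693 CPM in 5' reads and 606 to 1854 CPM in internal reads (1.02 ± 0.06). The largest negative ratios were those of Oog1, an oogenesin of the PRAME family (48.5 to 108 CPM in 5' reads, 265 to 894 CPM in internal reads, no overlap, -2.81 ± 0.12), and Fbxw14, an F-box gene (-2.34 ± 0.24). Both belong to families with close copies.

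Genes linked to DUX, the homeodomain factor that opens the 2-cell program, had a lower median ratio than all genes. Of 53 tested (57 of 64 entries matched), 5 were higher and 34 lower in 5' reads, 1 was start-rich and 18 body-rich (33.96% against 20.6% of all genes), and the median was -0.73 with a residual of -0.61. Gm2022, a short predicted gene (ENSMUSG00000113971.1, chromosome 12, 87895370 to 87895804, plus strand), had a median of 0.79 CPM in 5' reads and 42.4 CPM in internal reads, with 32 and 847 counts over the 9 embryos (-4.92 ± 0.39). Tdpoz3, which encodes a TRAF- and BTB/POZ-domain protein, had a lowest, median and highest value of 0, 2.04 and 6.70 CPM in 5' reads, against 6.37, 57.6 and 117 CPM in internal reads (-4.40 ± 0.23). Its relative Tdpoz4 stood at -3.37 ± 0.32. These families hold near-identical copies, so a read that fits several copies can be counted differently in the 2 classes. Among 13 genes known to be transcribed from LTRs in oocytes or 2-cell embryos, 2 were higher and 9 lower in 5' reads, 0 were start-rich and 3 body-rich (23.1%, near the 20.6% of all genes; median -0.68), including Tdpoz3 and Tdpoz4. An RNA that begins in an LTR can be counted under the repeat row, the gene row or both, which the files do not tell.

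**Figure D5:**
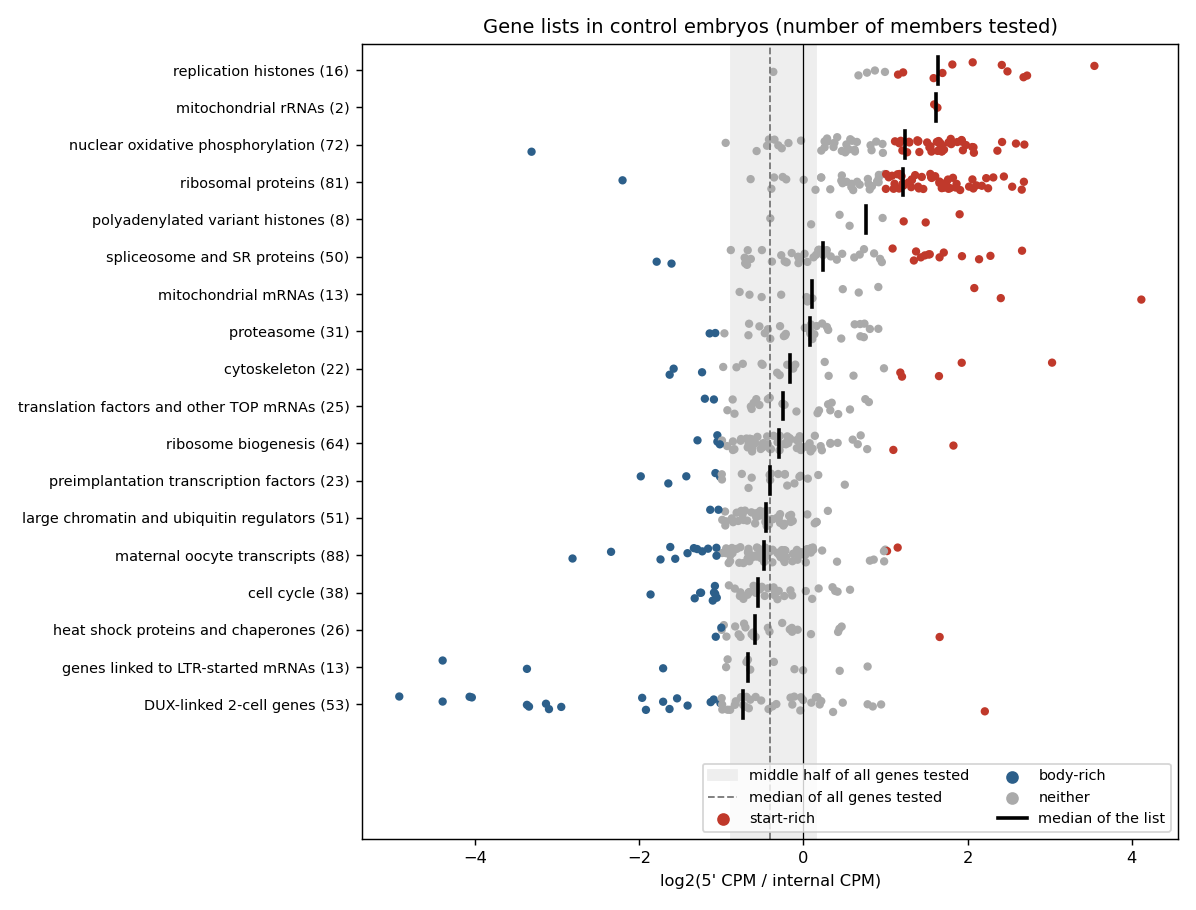
log2(5' CPM / internal CPM) of the members of 18 gene lists in control embryos, with the number tested in brackets. Points are genes coloured by call, black bars are list medians, from 1.64 for replication histones to -0.73 for DUX-linked genes, and the dashed line and grey band are the median (-0.40) and quartiles of all genes tested.

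Lists of regulatory genes had medians near that of all genes. Of 51 large chromatin and ubiquitin regulators (median length 14838 bp) 0 were higher and 34 lower in 5' reads, against 17.6% and 47% of all genes. Their median was -0.46 and their residual 0.02. Of the 51, 0 were start-rich (against 8.94% of all genes) and 2 body-rich (3.92% against 20.6%). The 2 were Kmt2d, a histone H3 lysine methyltransferase (126 to 319 CPM in 5' reads, 254.5 to 673.5 CPM in internal reads, -1.04 ± 0.07), and the bromodomain gene Baz2b (-1.14 ± 0.19, lower in 8 of 9 embryos). Among 23 preimplantation transcription factors 5 were body-rich (21.7%, near the 20.6% of all genes) and 0 start-rich (median -0.41), led by Klf5 (-1.98 ± 0.16, a call lost without the embryo block) and Tbx3 (-1.65 ± 0.13), factors of the early lineages. Of 38 cell cycle genes 9 were body-rich (23.7%, also near that share) and 0 start-rich (median -0.56), with the CDK-activating phosphatase Cdc25b at -1.86 ± 0.19 and the cyclin Ccnd3 at -1.32 ± 0.18.

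The remaining housekeeping lists held smaller shares of 2-fold calls than all genes, of which 8.94% were start-rich and 20.6% body-rich. Of 31 proteasome genes 11 were higher and 10 lower in 5' reads (median 0.08, residual 0.27). Of the 31, 0 were start-rich and 2 body-rich (6.45%). The 2 were Psmd1 (-1.14 ± 0.10) and Psmd2 (-1.07 ± 0.08), the large scaffold subunits of the regulatory particle. Of 64 ribosome biogenesis genes 2 were start-rich (3.125%) and 4 body-rich (6.25%), with a median of -0.30. The start-rich ones were Nop10, a small protein of the H/ACA ribonucleoprotein (60.7 to 444 CPM in 5' reads, 19.99 to 133 CPM in internal reads, 1.83 ± 0.09), and Polr1d, a small subunit shared by RNA polymerases I and III (1.10 ± 0.06). Rrn3, the initiation factor of RNA polymerase I, had 58.02 to 141 CPM in 5' reads and 173 to 355 CPM in internal reads without overlap (-1.29 ± 0.09), and the rRNA methyltransferase Ftsj3 stood at -1.05 ± 0.17. Of 26 heat shock and chaperone genes 1 was start-rich (3.85%) and 2 were body-rich (7.69%). The start-rich one was Hspe1, the small mitochondrial co-chaperonin (106 to 349.5 CPM in 5' reads, 36.04 to 121 CPM in internal reads, 1.66 ± 0.09). The body-rich ones were the mitochondrial Hspa9 (76.3 to 132 CPM in 5' reads, 184 to 308 CPM in internal reads, no overlap) and the chaperonin subunit Cct6a (-1.07 ± 0.08, a call lost without the embryo block).

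The largest ratios of single named genes included several outside these lists. Stxbp2, a vesicle-docking protein gene (ENSMUSG00000004626.14, chromosome 8, 3630955 to 3643644, plus strand), had a lowest, median and highest value of 2.01, 24.4 and 221 CPM in 5' reads, against 0, 1.05 and 6.37 CPM in internal reads (4.10 ± 0.33, 603 and 30 counts over the 9 embryos). Rnaseh2a, the catalytic subunit of RNase H2 (ENSMUSG00000052926.16, chromosome 8, 84956610 to 84969767, minus strand), had 260.3 to 749 CPM in 5' reads and 49.4 to 116 CPM in internal reads, with no overlap (2.59 ± 0.11), although its exons sum to 3509 bp. By residual from the length trend it stood at 3.07, beside Stxbp2 (4.62), Nudcd1 (3.03), Serf2 (2.99) and Il4i1 (2.98). Serf2 had 1614 to 4498 CPM in 5' reads and 349.96 to 689.9 CPM in internal reads without overlap. The rows of Rnaseh2a, Nudcd1, Serf2 and Il4i1 overlap other annotated genes, as do those of Snrpg, Hspe1, H3f3a and Hist1h2an.

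At the other end, Fam166a (ENSMUSG00000026969.3, chromosome 2, 25218745 to 25222280, plus strand) had 0 to 3.28 CPM in 5' reads and 26.8 to 85.97 CPM in internal reads, with no overlap and 13 and 665 counts over the 9 embryos (-5.50 ± 0.34). Prr32 (-4.84 ± 0.34), the protease inhibitor gene Serpinb3a (-4.63 ± 0.49) and Lgsn (-4.22 ± 0.46) had medians of 2.38, 0.79 and 0.81 CPM in 5' reads and 50.01, 18.02 and 17.9 CPM in internal reads. Lrrc8a, an essential subunit of the volume-regulated anion channel, had 0.96 to 13.6 CPM in 5' reads and 44.3 to 204 CPM in internal reads (-4.19 ± 0.28). The GTPase gene Rhoq (-4.09 ± 0.31), the mitotic kinase gene Nek6 (-4.06 ± 0.33), the zinc finger gene Zfp869 (-3.90 ± 0.38) and the glycogen phosphorylase gene Pygl (-3.81 ± 0.52) followed. All of these were lower in 5' reads in 9 of 9 embryos. The rows of Fam166a, Lgsn, Lrrc8a, Rhoq, Nek6 and Pygl overlap other annotated genes.

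Gene type also went with the ratio. Protein-coding genes held 555 start-rich and 1888 body-rich rows of 9967 (5.57% and 18.9%, median -0.42), and processed pseudogenes 46 and 115 of 202 (median -1.42). Unprocessed pseudogenes, copies made by DNA duplication, held 6 start-rich and 51 body-rich rows of 77 (median -2.11). Antisense genes were split, with 147 start-rich and 107 body-rich rows of 365 (median 0.43), and 15 of 32 lncRNAs of bidirectional promoters were start-rich against 2 body-rich (median 0.89). Pseudogenes share sequence with their parents and antisense genes share positions, so the values of these rows can depend on the counting rule. Among the 4942 genes that overlap no other gene, 7.26% were start-rich and 18.8% body-rich, against 10.2% and 22.04% of the 6506 that do.

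In the treated embryos the signs of the rows called in controls largely recurred. Of the 127 repeat subfamilies that were start-rich in controls, 125 had a median ratio above 0 in each treated group, and of the 1023 start-rich genes this held for 1004 (SRF-LOF), 1006 (DUX-LOF) and 979 (Double-LOF). Of the 134 body-rich repeat subfamilies 132, 127 and 133 had a median ratio below 0 in the same order of groups. Of the 2362 body-rich genes this held for 2334, 2304 and 2331. The median over all rows tested was already below 0 in controls (-0.40 for genes, -0.25 for repeats). The share of all rows below 0 in the treated groups was not counted. The treated groups were not used to choose the members, and the median over body-rich genes lay at -0.97 in DUX-LOF embryos, -1.04 in Double-LOF embryos and -1.39 in SRF-LOF embryos. The ratio differed from control (interaction of read class and group, embryo as a block) for 5 genes (0.0437%) and 1 repeat subfamily (0.156%) in SRF-LOF, 429 genes (3.75%) and 113 subfamilies (17.6%) in DUX-LOF, and 424 genes (3.7%) and 105 subfamilies (16.4%) in Double-LOF. Of the 113 subfamilies 85 had a higher and 28 a lower ratio in DUX-LOF than in control embryos. The 3 comparisons share the control embryos, and these counts fell to 8 or fewer without the embryo block. With SRF-LOF, 691 genes and 92 subfamilies were at an unadjusted p under 0.05, and no other tool was run on this interaction.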

How the data were processed

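Single late 2-cell embryos were profiled with Smart-seq+5', and the authors deposited 2 count tables per embryo. The internal reads are counts of paired alignments and the 5' reads are counts of second reads taken as single-end, per the file headers; the 5' columns were entered as estimated counts in the deposited tables and hold whole numbers. The submitters' processing notes name the aligner STAR 2.7.11a and the build GRCm38, and reads were 150 bp long. The tool used for counting, the rule for reads with several positions, strand and annotation release are not given in the sources used here. Multi-copy rows may thus be treated differently in the 2 read classes.

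Groups were taken from the sample labels, which do not say whether embryos share a litter. CPM values used the sum over gene rows as library size. edgeR 4.0.16 (limma 3.58.1, R 4.3.3) fitted the 18 control libraries with embryo and read class as terms, on the quasi-likelihood test with Benjamini-Hochberg adjustment over genes and over repeats separately. The block pairs files of 1 embryo: their deviations correlated at 0.671 to 0.837, and each was highest with its own partner in 9 of 9. Sums and LTR pairs were tested over embryos with an exact sign-flip permutation test. The pairs and the ratios of single embryos used a pseudocount of 0.5 counts, and the sums used none. Gene names came from GENCODE M21, matching 53947 rows exactly, 862 by ID without version and 29 not at all. The fit was tested on simulated data. Alternatives were DESeq2 1.42.0, TMM factors, other library sizes, other filters, each embryo left out, no block and, chosen after seeing the data, ERCC scaling.

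Members and gene lists were chosen with earlier results of these data known. Named genes were up to 10 per direction with the largest change, 5 by residual from the length trend, 2 per direction and list, 8 LTR and 4 LINE subfamilies per direction, all with a mean of at least 10 CPM (for the largest changes with the same sign in all 9 embryos), plus fixed MT2, MERVL, MTA, ORR1A0, IAP and L1Md rows.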

Additional observations from a re-analysis of the deposited data

Results flagged for a closer look

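In 109 sets of 9 control embryos, 12 held 1 embryo set apart from the others by Dixon's test, where chance gives about 1 in 20. Among genes, the log2 ratio of the embryo set apart was -2.44 for Eif3f (lowest, Control 2), -3.47 for Snrpn (lowest, Control 10), 2.02 for H3f3a (highest, Control 5), -3.70 for Klf5 (lowest, Control 8) and 2.23 for Hspe1 (highest, Control 5). Among repeat rows, the log2 ratio of the embryo set apart was 7.84 for ORR1A0_v (highest, Control 10), -4.89 for MTA_Mm-int (lowest, Control 5), -1.80 for RLTR40 (highest, Control 9), 3.22 for L1Md_F2 (highest, Control 5), 2.58 for Lx2A1 (highest, Control 3), 0.998 for Lx3A (highest, Control 3) and -4.76 for L1ME4a (lowest, Control 10). 

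The ratio of 5' to internal reads of a named row differed between treated and control embryos in 46 of 300 tests of the interaction (edgeR, adjusted over all genes or repeats). Over all rows tested, 3.75% of genes and 17.6% of repeats differed in DUX-LOF, and 3.7% and 16.4% in Double-LOF. In SRF-LOF the shares were 0.0437% and 0.156%. Many rows were named for large ratios in these same controls, which favours smaller ratios in treated embryos. The part of this choice in the differences was not tested. The values below are log2 differences, treated minus control, and all comparisons share the 9 controls. Some rows varied widely between treated embryos. In DUX-LOF, the ratio of single embryos ran from -4.59 to 1.87 for Gm2022 and from -6.10 to 1.87 for Tdpoz3. Counts in treated embryos are not given here, so the differences of rows with few counts are uncertain. Genes with a higher ratio in treated embryos were Atp5o (1.502 in DUX-LOF), Eif4b (0.50 in DUX-LOF, 0.44 in Double-LOF), Gm2022 (3.70 in DUX-LOF), Hspa9 (1.58 in DUX-LOF, 1.44 in Double-LOF), Nek6 (2.20 in DUX-LOF, 1.89 in Double-LOF), Psmd1 (0.58 in DUX-LOF), Rpl41 (1.20 in Double-LOF), Tdpoz3 (2.43 in DUX-LOF, 2.12 in Double-LOF) and Zfp869 (2.05 in DUX-LOF, 1.78 in Double-LOF). LTR-class and LINE rows with a higher ratio in treated embryos were HAL1ME (1.33 in DUX-LOF, 1.32 in Double-LOF), HERVL40-int (0.90 in DUX-LOF, 0.55 in Double-LOF), IAPEz-int (0.65 in DUX-LOF, 0.62 in Double-LOF), L1ME3F (2.00 in DUX-LOF), L1Md_A (0.98 in DUX-LOF, 1.01 in Double-LOF), L1Md_Gf (0.67 in Double-LOF), L1Md_T (0.51 in Double-LOF), LTR16D (1.40 in Double-LOF), MERVL-int (0.26 in DUX-LOF), MTA_Mm-int (1.18 in DUX-LOF, 1.08 in Double-LOF), RLTR13D5 (2.45 in DUX-LOF, 1.29 in Double-LOF), RLTR19 (1.18 in DUX-LOF, 0.69 in Double-LOF) and X7C_LINE (2.41 in DUX-LOF). Rows with a lower ratio in treated embryos were IAPLTR1_Mm (-1.45 in DUX-LOF, -1.54 in Double-LOF), MT2-Mm_i (-0.79 in DUX-LOF, -0.53 in Double-LOF), MT2-Mm_ii (-0.94 in DUX-LOF), MT2-Mm_iii (-0.95 in DUX-LOF), MT2-Mm_iv (-1.11 in DUX-LOF), MT2-Mm_v (-0.79 in DUX-LOF), MT2C_ix (-0.77 in DUX-LOF, -0.82 in Double-LOF) and RLTR11B (-1.33 in DUX-LOF, -1.63 in Double-LOF). The last set holds LTR rows, and MERVL-int and MTA_Mm-int are among the rows with a higher ratio. DUX-LOF and Double-LOF embryos were not tested against each other.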

How the results depend on the processing

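Of 2146 values of named rows and pairs under alternatives, 2085 kept direction and side of the threshold, 48 lost it, 4 gained it and 9 turned. Genes lower in 5' reads and body-rich genes numbered 3355 and 1463 with DESeq2 and 3543 and 1479 with TMM factors. With ERCC scaling 790 genes were higher, 8991 lower, 438 start-rich and 6800 body-rich, and 109, 423, 79 and 331 repeats. Repeats lower and body-rich numbered 168 and 86 with DESeq2, and 86 were body-rich with TMM. A test against 2-fold gave 644 start-rich and 1159 body-rich genes and 60 body-rich repeats. It ended the 2-fold calls of Baz2b, Ccnd3, Cct6a, Eif3f, Ftsj3, Hspa9, Kmt2d, Oosp1, Polr1d, Psmd1 and Psmd2. Without the embryo block (no replicate block), 833 genes were higher and 1925 lower and 144 repeats lower; the calls for SRF-LOF, DUX-LOF and Double-LOF were 0, 2 and 5 genes and 0, 8 and 3 repeats. A filter of 50 counts gave 1306 higher, 3412 lower, 498 start-rich and 1034 body-rich genes and 153 lower and 59 body-rich repeats, with fewer rows tested. By residual from the length trend 1299 genes were body-rich. The rank correlation with length was -0.0886 without a filter and -0.248 with the strict one. The cause was not tested.

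The LTR class sum turned to -0.037 with gene and repeat library sizes, -0.67 with ERCC scaling and -0.062 without MERVL rows, and passed the threshold at 0.40 with TMM and, without replicate 1, at 0.138 (adjusted p = 0.0234, exact permutation test). With TMM the LINE, ERVL-MaLR and L1 sums turned to 0.024, 0.018 and 0.027 and ERV1 lost its call at -0.000113; ERVK turned to -0.42 with ERCC scaling. MusHAL1 (-0.18), Lx3A (-0.40), L1Md_Gf (-0.75) and L1Md_T (-0.58) turned with ERCC scaling, L1Md_Gf also with gene and repeat library sizes (-0.12) and without replicate 9 (-0.071). RLTR6_Mm minus MMVL30-int turned without replicate 2 (0.091) and without replicate 5 (0.083), with a lowest value of -0.078, and IAPEY_LTR minus IAPEy-int without replicate 5 (-0.085), with a highest value of 0.61. Leaving out 1 embryo, L1Md_Gf reached at most 0.12.

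Leaving out each embryo gave 1829 to 1972 genes higher, 4911 to 5237 lower, 908 to 1016 start-rich and 2182 to 2319 body-rich, and 164 to 177, 232 to 257, 118 to 129 and 121 to 134 repeats. Class sums ranged from 0.081 to 0.138 (LTR), -0.30 to -0.22 (LINE), 2.27 to 2.40 (SINE), -0.65 to -0.59 (DNA), 1.60 to 1.69 (ERVL), -0.29 to -0.25 (ERVL-MaLR), 0.31 to 0.39 (ERVK), -0.33 to -0.26 (ERV1) and -0.30 to -0.22 (L1), and 20 to 22 LTR pairs passed the threshold, the losses being IAPEY3_LTR, ORR1D1 and RLTRETN_Mm (against ETnERV-int). An alternative without low libraries had none to leave out. Rows near the minimum of 10 counts are limited by depth.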
